A study of Mus musculus with 6 samples.

Results

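The 3 libraries described here were titled as knockout (KO) mouse embryonic fibroblasts at passages 2, 3 and 4, and they make up 3 of the 6 RNA-seq libraries of the series. They were chosen by title alone. The other 3 libraries were titled wild type (WT) at the same passages and are used only where the KO course is set beside theirs. Per the labels all cultures were mouse embryonic fibroblasts (MEFs) under normal culture without treatment, and total RNA was purified on columns (RNeasy Mini Kit). The labels name neither the knocked-out gene nor the strain, the age of the embryos or the number of cultures, and a second label, the genotype tag, calls the passage 3 and 4 libraries WT although their titles say KO. There was 1 library per passage, and the 3 passages may come from 1 culture. No replicate spread exists within KO, so the course is given by size and direction and carries no p-value.

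MEFs are a mixed primary culture grown out of minced embryos, in which fibroblasts outgrow the other cells that attach at first. At each passage the cells are lifted off the dish and seeded anew at lower density. Over successive passages in ordinary culture MEFs are known to slow their division and to build up the inhibitors encoded by Cdkn2a and Cdkn1a, a process in which the p53 pathway takes part. The comparison asks how the transcriptome of KO cultures moved over these passages.

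Depth was uneven: the passage 2 library held 27361852 expected counts, that of passage 3 held 67760880 and that of passage 4 held 30473493. A count of 0 allows up to 3 counts, which is 0.108, 0.0436 and 0.0939 CPM in that order, CPM being counts per library made comparable with TMM factors. Mitochondrially encoded genes took 0.78% to 0.887% of the counts, and the 10 most abundant genes took 8.28% to 8.84%. No 2 KO libraries held the same values, and they differed by far more than counting noise, with chi-square per degree of freedom from 32.6 to 64.04. The 10 fibroblast markers checked were present throughout, and 0 of them moved 2-fold. The collagen gene Col1a1 had 12274, 10326 and 10460 CPM, the intermediate filament gene Vim 2353, 2331 and 2070 CPM, and the mesenchymal factor gene Prrx1 575, 646 and 564 CPM at passages 2, 3 and 4. The small changes of these 3 had opposite signs on log2 CPM and log2(TPM + 1). Xist, the RNA of the inactive X chromosome, had 565, 422 and 557 CPM, whereas the Y-linked gene Ddx3y had 2, 0 and 23 counts in KO against 1773 to 3654 in WT. Ddx3y placed the 3 KO-titled libraries together, and this difference in a Y-linked gene cannot be told apart from the difference in genotype.

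Between passages 2 and 4, 373 of 13446 genes were at least 2-fold higher (2.77%) and 602 were at least 2-fold lower (4.48%). The 13446 genes are those with a mean of at least 1 CPM over the 3 KO libraries. Counts of list members past 2-fold, given below, are to be read beside these 2 shares. In what follows, rose and fell mean a change of at least 1 in log2 CPM (prior count 2) between the libraries named, and a change without a stated step runs from passage 2 to 4. Most genes past 2-fold moved the same way in both steps. Choosing genes on the sum of the 2 steps favours this, so the shares below do not by themselves show a continuing course. Of the genes that rose, 340 (91.2%) were higher in each step, and of those that fell, 554 (92.0%) were lower in each step. The first step was the larger in 204 of the 373 rises, and the second in 357 of the 602 falls. From passage 2 to 3, 119 genes (0.885%) rose and 229 (1.7%) fell, and from passage 3 to 4, 106 (0.788%) rose and 278 (2.07%) fell. This order turned on log2(TPM + 1) values centred on the median gene, where 49 rose and 147 fell in the first step and 58 and 110 in the second, so neither direction is placed in 1 step. The median gene changed by -0.01, with quartiles of -0.27 and 0.22. Of the calls 38.3% were rises. On log2(TPM + 1) values, where the median gene stood 0.22 higher at passage 4, this share was 59.4%, and after centring on the median gene it was 33.8%. The exact 95% counting interval of the change, which covers counting error only, lay beyond 0 for each of the 373 and 602 genes. The 2-fold threshold and the CPM filter made this nearly certain in advance, so it gives no added support. Of the genes that rose 292 were protein-coding, 20 were long intergenic RNAs and 8 were processed pseudogenes. Of those that fell 522 were protein-coding, 37 were processed pseudogenes and 16 were microRNA genes.

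**Figure D1:**
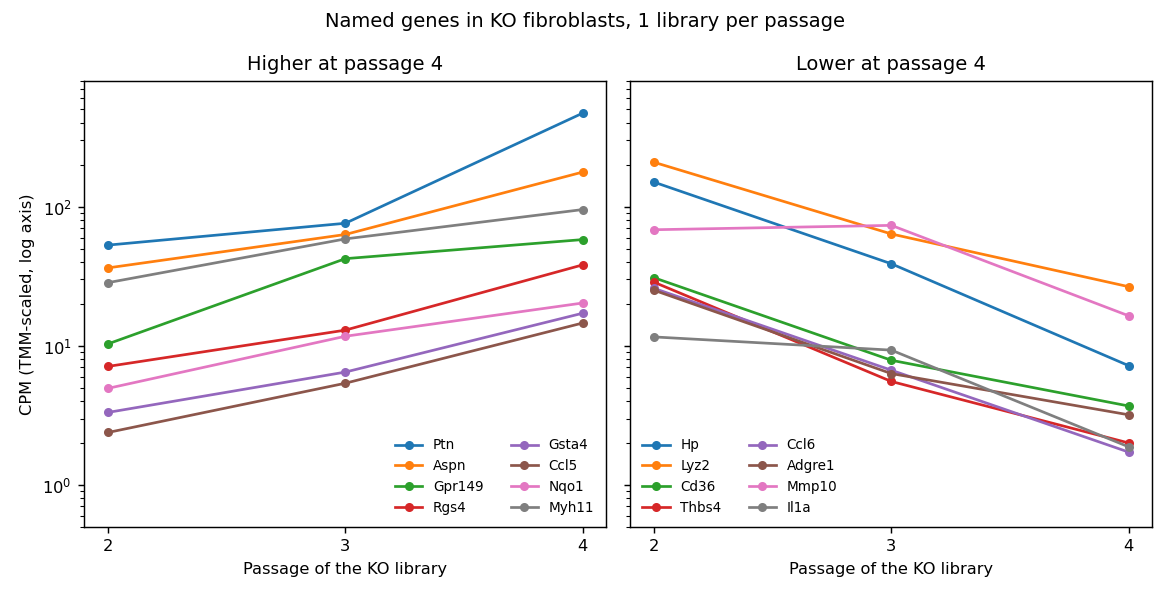
CPM on a log axis (y) against passage (x) for 16 genes in the KO libraries, with 8 that rose on the left and 8 that fell on the right; each point is 1 library and there are no error bars. Ptn stays near 50 to 80 CPM until passage 3 and reaches 470 at passage 4, while Hp goes from 150 through 38.9 to 7.2 CPM.

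The 12 largest rises and falls were taken only from protein-coding genes with both steps in the same direction. Among the 12 rises, growth factor, signalling and matrix genes stood beside detoxifying and interferon-induced genes. Ptn, which encodes the heparin-binding growth factor pleiotrophin (ENSMUSG00000029838, GRCm38 chromosome 6, 36714929 to 36810220), had 52.9, 76.0 and 470 CPM at passages 2, 3 and 4. Its log2 change was 3.15, or 8.88-fold, and 2.63 of it lay in the second step. The exact counting interval of the change was 3.07 to 3.23. Aspn, the gene of asporin, a small proteoglycan that binds collagen and TGF-beta, had 36.3, 63.1 and 177 CPM (log2 2.29). Rgs4, which shortens signalling by G proteins, had 7.11, 12.96 and 38.2 CPM (log2 2.42). For these 3 genes the second step was the larger. The orphan receptor gene Gpr149 went the other way, with 10.3, 42.3 and 58.0 CPM (log2 2.49), of which 2.03 came in the first step.

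Ccl5, a chemokine that attracts T cells and monocytes, had 2.38, 5.38 and 14.6 CPM (log2 2.59). Gsta4, a glutathione transferase that detoxifies products of lipid peroxidation, had 3.32, 6.47 and 17.1 CPM (log2 2.35). Both were higher in each step, as the rule of choice required. Car8 (log2 2.09), Lrrn3 (2.06) and Samd12 (2.06) also rose, from 2.42 to 3.61 CPM at passage 2 to 10.5 to 15.2 CPM at passage 4. Tgtp1, an interferon-induced GTPase gene, had 10.4, 30.8 and 89.4 CPM (log2 3.09), but 79.0% of its 64-base words also occur in other genes, so its count is uncertain, as is that of Fam220a (log2 2.44). The largest computed rise was that of mt-Co2, a mitochondrially encoded subunit of cytochrome c oxidase, and rests on 0, 391 and 782 estimated counts. The WT library of passage 2 was also at 0, and 99.5% of the words of mt-Co2 are shared with other annotated genes. Its neighbour mt-Co1 had 2968, 3116 and 3622 CPM, but 44.7% of its words are shared too, so its count is also uncertain. The value of mt-Co2 is given only as it is listed.

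The 12 largest falls included genes known from macrophages, fat cells and the acute-phase response. Hp, the gene of haptoglobin, a plasma protein that binds haemoglobin (ENSMUSG00000031722, chromosome 8, 109575128 to 109579172), had 150, 38.9 and 7.2 CPM at passages 2, 3 and 4. It was 20.9-fold lower at passage 4 (log2 -4.37, counting interval -4.58 to -4.19), with -1.95 in the first step and -2.43 in the second. Thbs4, the matrix glycoprotein gene thrombospondin 4, had 28.7, 5.54 and 2.0 CPM (log2 -3.81). The chemokine genes Ccl6 and Ccl3, products of myeloid cells, had 25.9, 6.68 and 1.72 CPM (log2 -3.87) and 11.8, 4.06 and 1.19 CPM (log2 -3.25). All 4 genes went down in both steps, as the rule of choice required. Cd36, a fatty acid receptor of fat cells and macrophages, had 30.8, 7.87 and 3.69 CPM (log2 -3.05), and the scavenger receptor gene Stab1 had 11.1, 3.23 and 1.53 CPM (log2 -2.82). Uncertain counts because of shared or overlapping sequence touch 4 of the 12, namely Chtf8, Rarres2, Igf2 and Hist1h2ah. Igf2, the imprinted fetal growth factor gene, was listed at 1106, 331 and 155 CPM.

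Macrophage and fat cell transcripts went down, mostly between passages 2 and 3. Every one of the 15 macrophage markers kept for analysis fell, with a median log2 change of -2.36 against -0.01 for all genes. Lyz2, lysozyme (ENSMUSG00000069516, chromosome 10, 117277331 to 117282321), had 208, 63.7 and 26.6 CPM (log2 -2.97), and Adgre1, the F4/80 antigen, had 25.1, 6.31 and 3.19 CPM (log2 -2.95). Ctss, a lysosomal protease of antigen-presenting cells, had 18.5, 6.59 and 3.82 CPM, and Laptm5, a lysosomal protein of blood cells, had 10.03, 3.62 and 2.19 CPM. In 13 of the 15 the first step was the more negative, and 13 were at least 2-fold lower in it, against 5 in the second. Because 3 of the 15 reached 1 CPM only at passage 2 and so could hardly be kept without falling, the list is also given whole. All 20 fixed markers had a count in some KO library, 18 of them were lower at passage 4, and their summed level was 414, 143 and 77.1 TPM, a unit that corrects for transcript length and sums alike in each library. Only Lyz1 was at 0 counts at passage 4, so macrophage transcripts were still measurable there. In bulk RNA, fewer cells of a type and less RNA per cell cannot be told apart.

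Adipocyte markers showed the same timing. All 12 fixed markers were lower at passage 4. Of these 9 were kept, 1 of which reached 1 CPM only at passage 2. Of the 9, 7 fell, and the median of those 9 was -2.72, with -1.89 in the first step and -0.84 in the second. Fabp4, the fatty acid carrier of fat cells, had 38.8, 15.4 and 8.57 CPM (log2 -2.17). Plin4, a lipid droplet protein, had 24.7, 6.41 and 3.69 CPM (log2 -2.72). The hormone gene Adipoq, singled out after its values were seen, had 10.9, 1.73 and 0.313 CPM (log2 -4.91). Lpl, lipoprotein lipase, which many mesenchymal cells make, had 226, 134 and 133 CPM (log2 -0.76). The summed level of the 12 was 269, 124 and 110 TPM.

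Epithelial and glial transcripts were lower at passage 4 as well, but mostly after passage 3. Of 9 epithelial markers kept, 7 fell (median -1.44), with -0.42 in the first step and -1.24 in the second. Because 2 of these 9 reached 1 CPM only at passage 2, the list is also given whole, and 16 of all 17 were lower at passage 4, with a summed level of 50.2, 39.7 and 27.4 TPM. Wt1, a factor of mesothelium, had 12.7, 8.92 and 5.01 CPM (log2 -1.33). Of 12 glial and neural markers kept 5 fell (median -0.70, first step -0.11, second step -0.70). Erbb3, a neuregulin receptor of Schwann cell precursors, had 14.7, 13.1 and 5.22 CPM (log2 -1.48), and Sox10, a factor of the neural crest, had 9.81, 8.22 and 4.19 CPM (log2 -1.22). Both moved little before passage 3. Of 7 endothelial markers kept 3 fell (median -0.55, first step -0.68, second step 0.13). Of the 7, 6 were below 0 and 1 was above 0, at a log2 change of 0.62. Cdh5, a junction protein of endothelium, had 6.86, 4.03 and 0.563 CPM (log2 -3.49) and the adhesion molecule gene Pecam1 had 4.08, 2.25 and 0.313 CPM (log2 -3.504), both named after their values were seen. The falls of Cdh5 and Pecam1 lay mostly after passage 3, unlike the list median. Flt1, an endothelial VEGF receptor that fibroblast cultures also transcribe, had 152, 95.05 and 104 CPM and did not reach 2-fold. Kdr, also on the list, stayed level (log2 -0.01).

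Among the genes kept, the other marker lists did not go down as groups. Of 11 cartilage, bone and tendon markers kept 5 were above 0 (median -0.10). Scx, a tendon factor, rose with 1.12, 1.69 and 2.32 CPM (log2 1.02), and Spp1 fell. Of 5 skeletal and cardiac muscle markers kept 2 were above 0 (median -0.20), and the summed level of all 22 was 60.95, 135 and 62.8 TPM. Acta1 alone had 37.0, 116 and 49.1 TPM of that. Given whole, the list went down in most members: 21 of the 22 had a count in some KO library, and 18 of them were lower at passage 4. At passage 4, 4 members were at 0 counts. Ttn, the giant sarcomere protein titin, was the only kept member that fell, with 4.83, 1.13 and 1.53 CPM (log2 -1.62). Both medians were positive on log2(TPM + 1), 0.31 for cartilage, bone and tendon and 0.12 for muscle. Of 7 pericyte and mural markers kept 4 were above 0 (median 0.08), and 3 fell. With no filter beyond 1 count in KO the median of this list was -0.65. Only 2 of 14 erythroid and blood markers were kept, and 1 rose, the platelet chemokine gene Ppbp. Scx and Ttn were named after their values were seen.

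Genes of DNA replication and mitosis were lower at passage 4, and most of that difference arose between passages 3 and 4. Of 48 S phase genes 47 were lower and 9 fell, with a median of -0.71. The median was -0.12 in the first step and -0.56 in the second. Uhrf1, which keeps DNA methylation through replication, had 122, 96.3 and 52.8 CPM (log2 -1.20). Cdc6, which loads the replicative helicase, had 25.6, 18.6 and 10.6 CPM (log2 -1.27), and Ung, a uracil glycosylase, had 8.19, 4.61 and 2.94 CPM (log2 -1.46). The dUTPase gene Dut had 30.7, 22.4 and 13.1 CPM (log2 -1.23). The G2/M list had the same median, -0.71 over 40 genes, with 39 lower and 4 that fell. Its median was 0.01 in the first step and -0.70 in the second, and for all 40 genes the second step was the more negative. Cdca8, a subunit of the chromosomal passenger complex, had 26.2, 26.3 and 12.7 CPM (log2 -1.04). Birc5, survivin, another subunit, had 34.5, 30.4 and 17.2 CPM (log2 -1.0). Spc24, a kinetochore protein, had 6.89, 5.53 and 3.13 CPM (log2 -1.13). The 2 steps share the passage 3 library, so a deviation of that library alone would move them in opposite directions.

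Mki67, the proliferation antigen Ki-67 that coats mitotic chromosomes (ENSMUSG00000031004, chromosome 7, 135689784 to 135716361), had 345, 280 and 172 CPM at passages 2, 3 and 4 (log2 -1.0, counting interval -1.05 to -0.96). Its promoter is shown because it holds both letter patterns that mark many promoters of mitotic genes, the CCAAT box bound by NF-Y and the TTTGAA element (also known as CHR). The window is the 250 bases before the RefSeq start on the minus strand, GRCm38 chr7:135716380-135716629, read 5′ to 3′. Capitals mark CCAAT (or ATTGG on the other strand) and TTTGAA (or TTCAAA).
Mki67: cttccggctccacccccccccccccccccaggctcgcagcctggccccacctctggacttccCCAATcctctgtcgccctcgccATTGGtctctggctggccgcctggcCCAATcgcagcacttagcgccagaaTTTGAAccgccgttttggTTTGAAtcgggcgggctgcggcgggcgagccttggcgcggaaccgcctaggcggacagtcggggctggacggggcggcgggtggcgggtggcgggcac
The window held CCAAT 3 times and TTTGAA 2 times. RefSeq windows of 300 bases (250 before to 50 after the start) were matched by symbol for 9907 of the 13446 genes. Of these 39.1% held CCAAT and 11.7% held TTTGAA on either strand. Among the 32 G2/M genes with a window, 24 (75%) held CCAAT and 22 (68.8%) held TTTGAA, and among 37 S phase genes 20 (54.1%) and 4 (10.8%) did. The 335 windows of genes that fell held CCAAT in 31.0% and TTTGAA in 11.3% of cases. A match is a run of letters and not a measured binding site.

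Replication-dependent histone genes, which are transcribed in S phase, went down further than the other cell cycle genes. Of 21 kept, 17 fell and 20 were lower, with a median of -1.69, of which -0.58 arose in the first step and -1.0 in the second. The list also holds H2afz, the gene of the variant H2A.Z, which is not replication-dependent and is not among the 17. Hist1h1a, a linker histone gene (ENSMUSG00000049539, chromosome 13, 23763666 to 23764406), had 88.9, 51.4 and 20.5 CPM (log2 -2.11). Hist1h1b had 87.1, 58.6 and 25.3 CPM (log2 -1.78). Core histone genes followed, with Hist1h2ab at 49.4, 34.2 and 14.2 CPM and Hist1h3f at 45.4, 28.3 and 11.4 CPM, although these have near-identical copies and their counts are uncertain. Replication-dependent histone messages are short and end in a stem-loop in place of a poly(A) tail. In WT the same 21 genes had a median of -0.24. Protein-coding genes of like length outside the lists were also lower at KO passage 4 (median -0.51 under 600 bases), and relative to them the histone median was -1.26. The part of length in this difference was not tested.

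**Figure D2:**
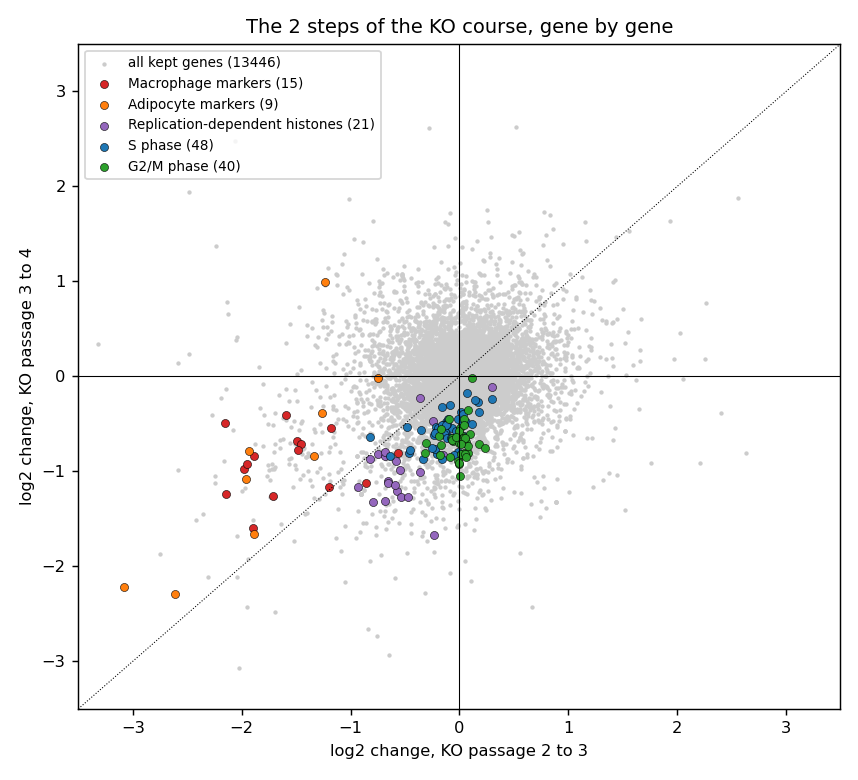
Log2 change of each gene in the first step (x, passage 2 to 3) against the second (y, passage 3 to 4) in KO; grey points are the 13446 genes, coloured points are 5 lists, the dotted line marks equal steps and 27 genes lie beyond the axes. Most macrophage and adipocyte markers lie above and to the left of the dotted line and beyond -1 on x, while S phase and G2/M genes sit near 0 on x and below 0 on y.

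The inhibitor gene Cdkn2a rose and p53 targets were mostly higher at passage 4, while the list of inhibitors and senescence marks was divided. Cdkn2a, the locus of p16 and p19Arf (ENSMUSG00000044303, chromosome 4, 89274471 to 89294653), had 8.8, 15.2 and 22.4 CPM and rose (log2 1.34, counting interval 1.14 to 1.56). Cdkn1a, which encodes the inhibitor p21 and is a main p53 target, had 247, 382 and 439 CPM (log2 0.83), short of 2-fold. For both the first step was the larger. Lmnb1, lamin B1, whose loss is a known mark of senescence, had 80.9, 69.7 and 42.6 CPM (log2 -0.93). Of 20 genes in the list of inhibitors and senescence marks, Cdkn2a alone passed 2-fold, 11 were above 0 and 9 below, and the median was 0.08. A single rise among 20 genes is not far from the 2.77% of all genes that rose. Of 38 p53 targets 7 rose and 0 fell, beside 2.77% and 4.48% of all genes. Their median was 0.59, and 31 of 38 were above 0. Trp53inp1, a p53-induced stress protein, had 56.4, 103 and 163 CPM (log2 1.53). Pmaip1, the death-promoting protein Noxa, had 17.5, 33.0 and 42.7 CPM (log2 1.28). Eda2r, a receptor of the TNF family, had 45.7, 71.4 and 103 CPM (log2 1.17). Mdm2, the ubiquitin ligase that degrades p53, had 147, 250 and 297 CPM (log2 1.02). The list's median was 0.37 in the first step and 0.24 in the second, whereas the S phase and G2/M medians moved mainly in the second.

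Inflammatory and secreted genes did not move as one group. Of 41 kept genes of the senescence secretome 2 rose and 9 fell, with a median of -0.02. Il1a, an inflammatory cytokine, had 11.6, 9.31 and 1.88 CPM (log2 -2.59), and Mmp10, stromelysin 2, had 68.3, 73.4 and 16.4 CPM (log2 -2.05). Mmp3, stromelysin 1, had 216, 194 and 74.2 CPM (log2 -1.54), and Spp1, osteopontin, had 2254, 2056 and 680 CPM (log2 -1.73). In these 4 genes nearly all of the fall lay between passages 3 and 4. Il6, another cytokine, was lower in each step, with 47.0, 29.9 and 15.8 CPM (log2 -1.57). Timp1, an inhibitor of matrix proteases, had 311, 241 and 150 CPM (log2 -1.05). The members that rose were Gdf15, a stress cytokine and p53 target with 4.65, 7.01 and 10.5 CPM, and the chemokine gene Ccl8 with 4.76, 8.25 and 12.9 CPM. Of 29 NF-kB and cytokine genes 8 fell and 0 rose, with a median of -0.43. Among them Saa3, an acute-phase protein of inflamed tissue, had 229, 89.9 and 55.0 CPM (log2 -2.06), and Lcn2, which binds bacterial siderophores, had 12.4, 6.73 and 5.13 CPM (log2 -1.26).

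Chemokine genes went both ways. Of 23 chemokine and receptor genes 3 rose (Ccl5, Ccl8 and Ccl11) and 5 fell (Ccl3, Ccl4, Ccl6, Ccl9 and Cxcl2). Ccl9, a chemokine of myeloid cells, had 16.4, 6.24 and 3.47 CPM (log2 -2.22), and Ccl11, eotaxin, which fibroblasts secrete, had 19.99, 38.1 and 41.8 CPM (log2 1.06). Ccl3, Ccl6 and Ccl9 went down together with the macrophage markers, whose summed level is given above, and the part of macrophage RNA in them was not tested. Complement genes also went both ways. C3, the central component, had 95.04, 46.0 and 45.1 CPM (log2 -1.07). Masp1, a protease of the lectin pathway, had 35.0, 70.0 and 90.0 CPM (log2 1.36), and Cd55, which shields cells from complement, had 19.7, 38.9 and 43.7 CPM (log2 1.15). For each of the 3 most of the change came in the first step.

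Interferon-stimulated genes were higher at passage 4, and 0 of them fell. Of 41 kept genes 7 rose and 37 were above 0, with a median of 0.53 that was divided evenly between the steps (0.27 and 0.29). Ifit1, an antiviral protein that binds foreign RNA caps (ENSMUSG00000034459, chromosome 19, 34640871 to 34650009), had 190, 266 and 442 CPM (log2 1.22, counting interval 1.18 to 1.27). Oas3, an enzyme that senses double-stranded RNA, had 11.6, 21.6 and 26.3 CPM (log2 1.18), and Iigp1, an interferon-induced GTPase, had 55.8, 66.8 and 126 CPM (log2 1.17). The paralogs Ifit3 and Ifit3b had 177, 258 and 437 CPM and 46.9, 77.8 and 139 CPM, but they share sequence and their counts are uncertain. The summed level of the list was 3185, 4364 and 5882 TPM. Ifit1 is shown with the 250 bases before its RefSeq start (plus strand, GRCm38 chr19:34640639-34640888). It is shown because it holds the core of the interferon-stimulated response element, to which interferon-activated factors bind. Capitals mark that core, GAAA followed after 2 bases by GAAA, or TTTC and TTTC on the other strand. This pattern was added after the values were seen.
Ifit1: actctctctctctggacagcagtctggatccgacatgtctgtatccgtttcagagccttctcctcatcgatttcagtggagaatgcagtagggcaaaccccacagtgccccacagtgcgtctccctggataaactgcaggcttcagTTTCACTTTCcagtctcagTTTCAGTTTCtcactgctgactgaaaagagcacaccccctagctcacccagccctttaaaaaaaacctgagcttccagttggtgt
The window held the pattern 2 times. Of the 28 interferon-stimulated genes with a window 16 (57.1%) held it, against 3.13% of all 9907 windows and 8.48% of the 224 windows of genes that rose.

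Single matrix genes passed 2-fold in both directions, beside 2.77% of all genes that rose and 4.48% that fell. Of 29 collagen genes 3 rose and 3 fell, with a median of 0.16. Col25a1, a transmembrane collagen gene, had 3.28, 8.84 and 13.2 CPM (log2 1.99), and Col4a5, a basement membrane chain, had 63.4, 95.9 and 150 CPM (log2 1.24). Col15a1, which sits between basement membranes and the stroma, had 27.4, 9.24 and 5.04 CPM (log2 -2.43), and Col5a3, a chain of the fibril regulator collagen V, had 162, 74.7 and 54.7 CPM (log2 -1.56). Both falls lay mostly in the first step. Of 48 matrix glycoproteins and proteoglycans (median 0.07) 2 rose, Aspn and Ogn (osteoglycin, 29.3, 34.0 and 79.6 CPM), and 6 fell. The 2 rises are near the share of all genes that rose. Sparcl1, an anti-adhesive relative of SPARC, had 11.2, 5.85 and 2.16 CPM (log2 -2.35), and Eln, elastin, had 14.3, 6.79 and 4.97 CPM (log2 -1.51). Col1a1, Col1a2 and Col3a1, which make the bulk of fibroblast collagen, had log2 changes of -0.23, -0.16 and -0.27, and on log2(TPM + 1) the signs of Col1a1 and Col1a2 turned. Col3a1 was lowest at passage 3, with 2226, 1338 and 1849 CPM.

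Single contractile genes passed 2-fold, while the list as a whole moved little. Of 26 contractile and myofibroblast genes 3 rose and 1 fell, beside 2.77% and 4.48% of all genes, and the median was 0.10. A single fall in 26 genes is near the share of all genes that fell. Myh11, smooth muscle myosin, had 28.4, 58.6 and 95.3 CPM (log2 1.74). Synpo2, an actin-bundling protein, had 11.4, 16.8 and 31.1 CPM (log2 1.44), and Lmod1, which nucleates actin in smooth muscle, had 62.4, 98.4 and 127 CPM (log2 1.03). Acta2, smooth muscle actin and the usual myofibroblast marker, had 2566, 3272 and 3812 CPM (log2 0.57), short of 2-fold. Des, desmin, had 85.8, 61.5 and 16.9 CPM (log2 -2.34), with -0.48 in the first step and -1.86 in the second. Of 7 mural cell genes kept, 3 fell too, among them Cspg4, the NG2 proteoglycan, with 136, 76.4 and 48.4 CPM (log2 -1.49).

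In the lists of growth signals single genes passed 2-fold, beside 2.77% of all genes that rose and 4.48% that fell. A single rise in a list of 25 to 35 genes is near that share. The TGF-beta list had 1 gene of 25 that rose, Tgfb2, a ligand, with 14.3, 16.4 and 34.5 CPM (log2 1.27). Of 33 BMP and WNT genes 1 rose and 6 fell. Id4, a BMP-responsive inhibitor of transcription factors, rose from 7.22 through 10.5 to 21.99 CPM (log2 1.60). The secreted WNT antagonists Sfrp2 and Sfrp1 fell, with 24.8, 8.7 and 7.85 CPM (log2 -1.65) and 268, 136 and 126 CPM (log2 -1.09), almost wholly by passage 3. Of 35 growth factor and ERK feedback genes 1 rose and 2 fell. The 1 that rose was Fgf10, a growth factor of mesenchyme, with 50.7, 91.6 and 114 CPM (log2 1.17). The EGF receptor ligand gene Ereg had 30.9, 50.6 and 56.3 CPM (log2 0.87).

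Glycolytic and hypoxia-induced genes were lower at passage 4, and antioxidant genes were higher. Of 35 glycolysis and HIF-1 targets 6 fell and 32 were lower, with a median of -0.52, of which -0.16 came in the first step and -0.45 in the second. Slc16a3, the lactate exporter MCT4, had 219, 186 and 82.9 CPM (log2 -1.40). Pdk1, a kinase that inhibits pyruvate dehydrogenase, had 78.4, 56.8 and 37.4 CPM (log2 -1.07). Bnip3, a mitophagy protein, had 137, 119 and 66.5 CPM (log2 -1.04), and Higd1a, a small mitochondrial protein induced by hypoxia, had 54.5, 33.6 and 21.9 CPM (log2 -1.31). Of 21 NRF2 targets 5 rose and 0 fell (median 0.48). Nqo1, a quinone reductase (ENSMUSG00000003849, chromosome 8, 107388225 to 107403206), had 4.94, 11.7 and 20.3 CPM (log2 2.03, counting interval 1.77 to 2.31). Gstm1, a glutathione transferase, had 18.3, 33.4 and 43.0 CPM (log2 1.23), and Gclc, the catalytic subunit for glutathione synthesis, had 23.2, 36.1 and 48.0 CPM (log2 1.04). In each of these 3 the first step was the larger. In lipid synthesis Scd1, the stearoyl-CoA desaturase, fell with 617, 430 and 228 CPM (log2 -1.44), and it was the only 1 of 15 fatty acid genes past 2-fold. The median of those 15 was -0.28 on the CPM scale and 0.07 on log2(TPM + 1), where the sign turned. Of 25 cholesterol genes 0 passed 2-fold (median -0.15, but 0.13 on log2(TPM + 1)). They had a median of 0.14 in the first step and -0.29 in the second, and all 25 were more negative in the second. Of 40 lysosomal genes 33 were above 0 (median 0.21), and only Ctss, counted above as a macrophage marker, passed 2-fold.

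Ribosomal protein genes and nuclear genes of respiration were lower at passage 4 almost without exception, by less than 2-fold. Of 56 cytosolic ribosomal protein genes 55 were lower at passage 4, with a median of -0.56 (first step -0.34, second step -0.22), and 0 fell. Rpl32 had 354, 243 and 198 CPM (log2 -0.84), and Rps13 had 210, 136 and 114 CPM (log2 -0.88). Of 47 nuclear genes of oxidative phosphorylation 46 were lower (median -0.36). Cox5a, a subunit of cytochrome c oxidase, had 63.7, 48.5 and 38.9 CPM (log2 -0.71), and Uqcrq, of complex III, had 44.1, 34.8 and 27.4 CPM (log2 -0.69). The mitochondrially encoded genes went the other way, with 10 of 13 above 0 and a median of 0.11, and of these mt-Co1 had a log2 change of 0.29. The counts of mt-Co1, mt-Co2, mt-Co3 and mt-Nd4l are uncertain because of shared sequence, and the 10 include mt-Co2. Of 50 ribosome biogenesis genes 49 were lower (median -0.33), and all 20 tRNA synthetase genes were (median -0.23, but 0.04 on log2(TPM + 1)). Gar1, a core protein of the particles that modify ribosomal RNA, had 18.7, 13.1 and 9.48 CPM (log2 -0.98). Among 34 genes of the ATF4 and unfolded protein responses 29 were lower and 0 passed 2-fold (median -0.32). On log2(TPM + 1) values, where the median gene stood 0.22 higher, the oxidative phosphorylation median was -0.094 and the ribosome biogenesis median -0.055.

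Transcript length moved with these results. Protein-coding genes outside every list with an effective length under 600 bases had a median change of -0.51 in KO, and 233 of 260 were lower. The median was -0.22 for 600 to 1000 bases, -0.06 for 1000 to 1500, and between 0.01 and 0.04 above that. In WT the trend ran the other way, from 0.31 under 600 bases to -0.11 over 4000. Relative to unlisted genes of like length the ribosomal protein median was -0.19 and the oxidative phosphorylation median was -0.13, whereas the ribosome biogenesis median hardly moved (-0.31). The S phase (-0.68), G2/M (-0.70), p53 target (0.62) and interferon (0.60) medians also stayed close to their first values. The part of length in the ribosomal protein, respiration and histone results was not tested further. Base composition showed no such trend, with KO medians between -0.03 and 0.03 over 5 equal bins of GC content, while WT medians went from -0.15 in the lowest bin to 0.09 in the highest.

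**Figure D3:**
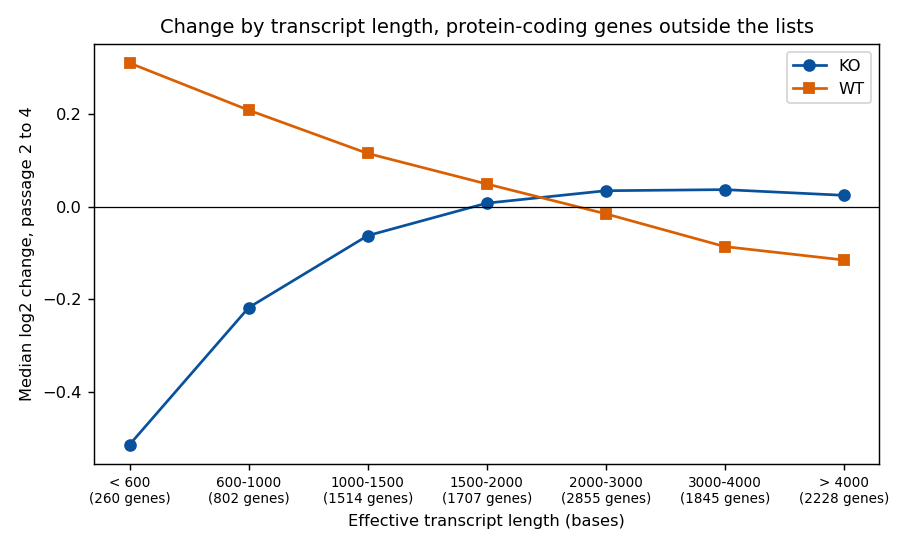
Median log2 change from passage 2 to 4 (y) by effective transcript length in bases (x) for protein-coding genes outside every list, in KO (circles) and WT (squares), with the number of genes under each bin. The shortest genes have a median of -0.51 in KO and 0.31 in WT, and the 2 lines cross between 1500 and 3000 bases.

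The mTOR genes of the series title kept nearly level, and 1 other gene of the list passed 2-fold. Tsc1 had 46.0, 49.7 and 49.7 CPM and Tsc2, its partner in restraining mTORC1, had 82.1, 84.8 and 84.0 CPM at passages 2, 3 and 4. The kinase gene Mtor had 69.1, 71.7 and 70.9 CPM, and Rptor, which encodes the mTORC1 subunit Raptor, had 70.7, 72.7 and 74.3 CPM. These 4 had log2 changes from 0.03 to 0.11. Of 43 mTOR and title genes 1 fell and 0 rose (median 0.04), beside 4.48% and 2.77% of all genes. The gene that fell was Rragd, a Rag GTPase, with 8.41, 5.03 and 4.16 CPM (log2 -1.01). Of the list 25 were above 0 and 18 below. Short of 2-fold, the insulin receptor substrate genes Irs1 and Irs2 had log2 changes of 0.76 and -0.68, and Lamtor4, of the complex that anchors mTORC1 to lysosomes, had -0.65. The count of Irs1 is uncertain because of overlapping exons. Ccl24 had 0 counts in each KO library, and its receptor gene Ccr3 had 0, 1 and 3, so no course can be given for either.

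**Figure D4:**
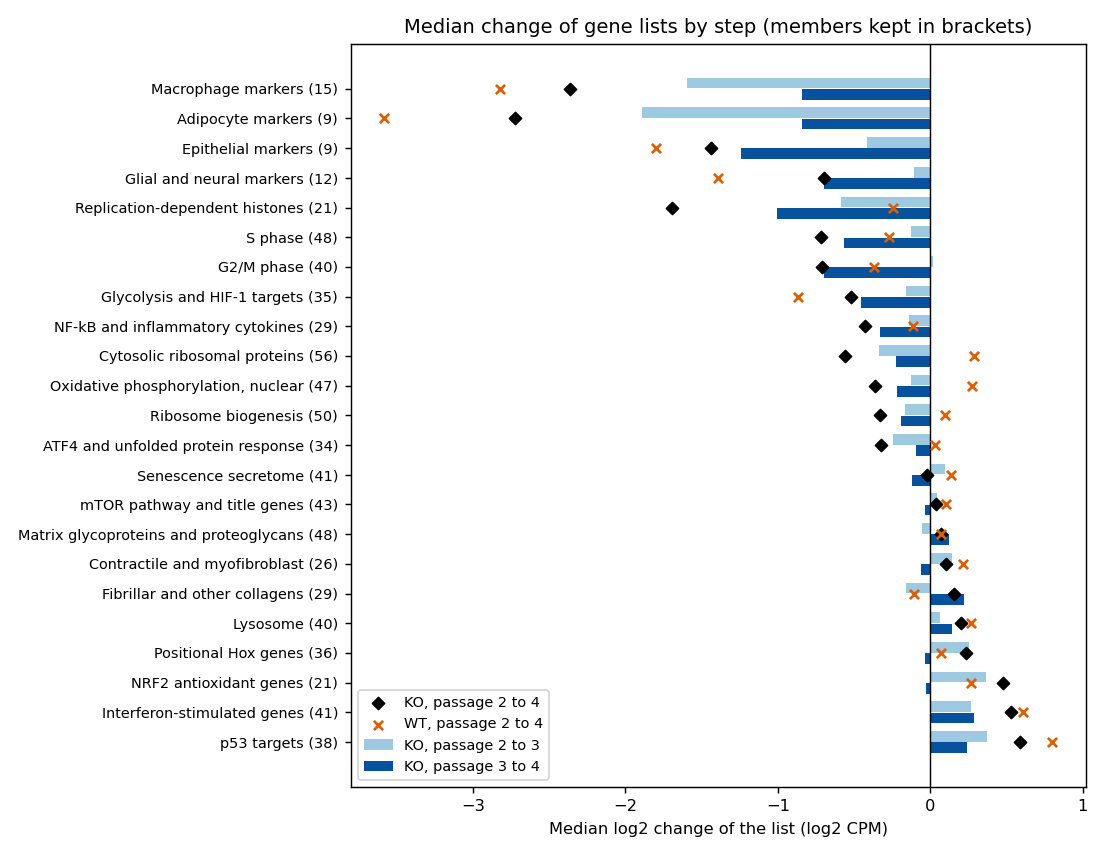
Median log2 change (x) of 23 gene lists (y, with the number of kept genes) in KO, as bars for passage 2 to 3 (light) and 3 to 4 (dark) and a diamond for passage 2 to 4; crosses give the WT median from passage 2 to 4. Adipocyte and macrophage markers and histones have the most negative of these medians, p53 targets and interferon-stimulated genes the most positive, and ribosomal proteins stand at -0.56 in KO and 0.29 in WT.

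A few genes turned at passage 3. Only 10 genes (0.0744%) were at least 2-fold above both other passages, and 12 (0.0892%) were at least 2-fold below both. Among the former was Acta1, skeletal muscle actin, with 30.6, 87.7 and 33.0 CPM, and among the latter Sned1, a matrix protein gene, with 21.6, 9.82 and 20.8 CPM. Other turns were short of 2-fold in 1 or both steps. The stromal cytokine gene Il11 had 4.19, 7.84 and 3.69 CPM, and Sod3, an extracellular superoxide dismutase, had 58.4, 104 and 60.5 CPM. Both were highest at passage 3. Pparg, the master factor of fat cells, had 6.96, 2.94 and 5.91 CPM, and the matricellular gene Ccn3 had 32.5, 18.2 and 36.2 CPM. Such courses cannot be told apart from a feature of the single passage 3 library, which was also the deepest.

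Most genes that changed 2-fold in KO changed in the same direction in WT. In WT, 280 of the same 13446 genes (2.08%) were at least 2-fold higher at passage 4 and 706 (5.25%) at least 2-fold lower. Of the 373 genes that rose in KO, 310 (83.1%) were higher in WT and 137 (36.7%) at least 2-fold. Of the 602 that fell, 528 (87.7%) were lower in WT and 334 (55.5%) at least 2-fold. Over all 13446 genes 62.9% had the same direction, and the changes correlated with Pearson's r of 0.54 and Spearman's rho of 0.41. These are correlations across genes, which are not independent replicates. The macrophage, adipocyte and epithelial medians were lower at passage 4 in both, at -2.36 in KO and -2.82 in WT, -2.72 and -3.58, and -1.44 and -1.80. The p53 targets (0.59 and 0.80), interferon-stimulated genes (0.53 and 0.61) and glycolysis genes (-0.52 and -0.87) had the same sign in both.

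Whether the KO and WT courses differed was tested as a difference of their slopes per passage. With 1 library per genotype and passage this is no test against replicates. By edgeR's quasi-likelihood test with Benjamini-Hochberg adjustment, 0 of 16603 genes passed an adjusted p of 0.05 (0%), with a smallest adjusted p of 0.11, and 1137 (6.85%) had an unadjusted p under 0.05. DESeq2 called 82 of 10809 genes and limma-voom 0. Without the KO library of passage 2, 3 or 4 edgeR called 1, 11 or 8 genes. With KO and WT paired by passage as a block, a fit chosen after seeing the data, edgeR called 5 genes, with adjusted p from 0.0193 to 0.024. Neat1, a nuclear long RNA of paraspeckles, had a log2 change of 1.06 in KO and -2.06 in WT. The others were Fosb, mt-Atp8 and the predicted genes Gm12918 and Gm28635. The gene mt-Atp8 overlaps mt-Atp6, so its count is uncertain. The test had 2 residual degrees of freedom and takes departure from a straight line as its error. Unadjusted p-values under 0.05 with KO lower were most frequent in 3 lists, in 49 of 56 ribosomal protein genes, 28 of 47 oxidative phosphorylation genes and 17 of 21 histone genes. Among unlisted protein-coding genes under 600 bases 131 of 260 (50.4%) did so too, all with KO lower. The mitochondrially encoded list had 7 of 13, all with KO higher, though some counts of that list are uncertain, as said above. The smallest adjusted p in these 4 lists was 0.548. Rpl32 had a log2 change of -0.84 in KO and 0.48 in WT (unadjusted p = 0.0013, edgeR adjusted p = 0.548). Hist1h1a had -2.11 and -0.69 (adjusted p = 0.548), Cox5a -0.71 and 0.48 (adjusted p = 0.548), and Aspn 2.29 and 0.81 (adjusted p = 0.574). A p that misses the threshold does not show that the courses were alike.

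**Figure D5:**
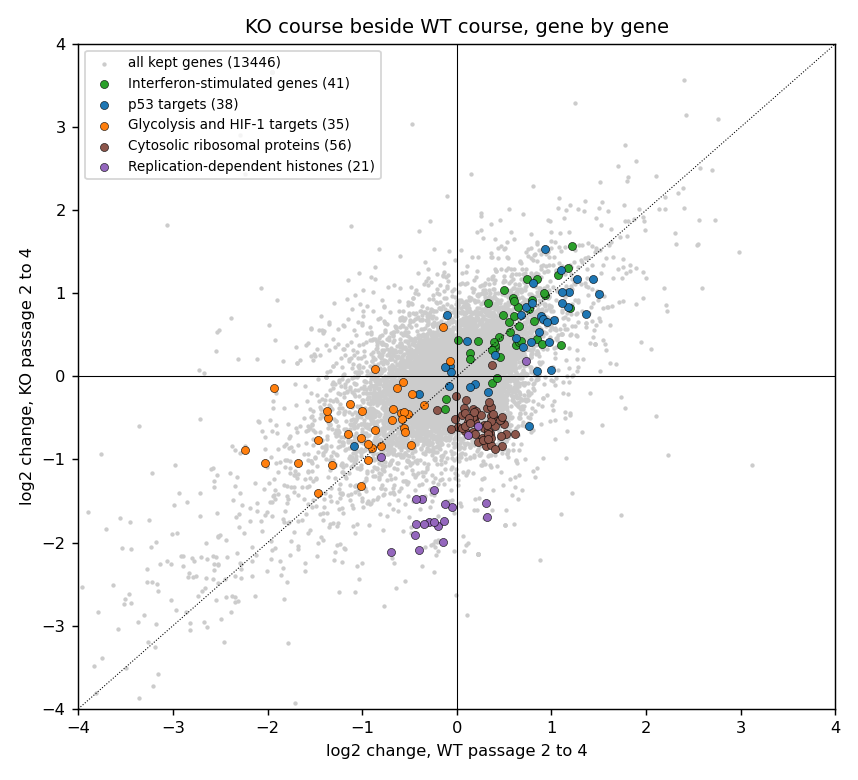
Log2 change from passage 2 to 4 of each gene in KO (y) against WT (x); grey points are the 13446 genes, coloured points are 5 lists, the dotted line marks equal change and 53 genes lie beyond the axes. Interferon-stimulated genes, p53 targets and glycolysis genes lie along the dotted line, while ribosomal protein and histone genes lie below it.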

How the data were processed

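The submitters' processing notes name Trimmomatic 0.39, RSEM and the build GRCm38. No source used here gives the RSEM version, the annotation or the use of strand. The deposited tables hold, per gene and library, expected counts, in which the authors' RSEM run divides ambiguous reads among genes, and TPM values, scaled by the authors for transcript length and to a fixed total. Of the expected counts 12.4% to 15.8% per KO library were not whole. They were rounded, and 55227 of 55487 genes (99.5%) matched GENCODE M21. The rest held 0.542% to 0.684% of KO counts.

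CPM were scaled by TMM over all 6 libraries (edgeR 4.0.16, R 4.3.3), and changes are differences of log2 CPM with a prior count of 2. Genes with a mean of at least 1 CPM over the KO libraries were kept. Intervals are exact 95% conditional binomial (Clopper-Pearson). The slope test (glmQLFit, robust, interaction of genotype and passage) used 16603 genes after filterByExpr with a minimum count of 10. It was also run on simulated counts with exactly linear KO slopes. Those counts held no length trend, so that run gives no support for the results here.

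Named genes are the 12 largest monotone rises and falls and 6 largest peaks and dips among protein-coding genes with a mean of at least 5 CPM, up to 4 members per list, the title genes and fibroblast markers. Adipoq, Lpl, Cdh5, Pecam1, Mdm2, Hist1h1b, Acta2, Ddx3y, Ccl4, Ccl8, Ccl11, Cxcl2, Iigp1, C3, Ogn, Scx, Ttn, Neat1 and the other genes called with passage as a block were chosen after their values were seen. The libraries and the 46 gene lists were chosen with earlier results of these data known. A gene is called uncertain where 25% or more of its 64-base words or exon bases are shared with another gene. DESeq2 1.42.0, limma 3.58.1 and other scalings and filters were alternatives.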

Additional observations from a re-analysis of the deposited data

How the results depend on the processing

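Counts of genes past 2-fold depended on the filter and the unit more than on the scaling. With no filter beyond 1 count in KO, 2571 genes were higher and 2609 lower at passage 4, 1459 and 1743 in the first step, 1343 and 1379 in the second, 340 peaked and 236 dipped at passage 3, and the adipocyte median was -2.45. With a mean of at least 5 CPM the counts were 165 and 265, 36 and 79, 37 and 105, with 2 peaks and 4 dips, and the adipocyte median was -1.91. A threshold of 1.5-fold gave 1077 higher and 1465 lower. These filters and thresholds change the genes counted by construction.

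On log2(TPM + 1), which understates the change of low genes, 266 genes were lower at passage 4, 79 rose and 103 fell in the first step, 91 fell in the second, and 4 peaked and 5 dipped. The medians were -0.41 for S phase, -0.39 for G2/M, -1.41 for histones, 0.81 for interferon-stimulated genes, -0.055 for ribosome biogenesis, -0.25 for glycolysis, -0.094 for oxidative phosphorylation, -1.62 for macrophage, -0.72 for epithelial, -0.44 for glial and -1.87 for adipocyte markers. Fatty acid synthesis turned to 0.070. Centred on the median gene, an alternative chosen after seeing the data, TPM gave 209 genes higher at passage 4, 49 and 147 in the first step, 58 and 110 in the second, and 4 peaks and 5 dips, with medians of -1.84 (macrophage), -0.94 (epithelial) and -2.09 (adipocyte). Less the median of unlisted coding genes of like length, also chosen after seeing the data, histones had -1.26 and ribosomal proteins -0.19. The cause of these shifts was not tested.

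For the slope difference, where edgeR called 0 genes, DESeq2 called 82, edgeR with no filter 289 and limma on log2(TPM + 1) 2. Leaving out 1 library at a time gave 0 to 11 calls. Median-ratio size factors, TMM over the KO libraries alone, a prior count of 0.5 and leaving out mitochondrially encoded genes moved no count of genes past 2-fold by over 1.5 times. Of the 122 named genes past 2-fold 0 turned direction under any scaling, prior count or unit tried. This was nearly fixed in advance, since these genes changed by at least 1 and the median gene by at most 0.22 under any of these settings. A filter cannot turn a sign. Of the 104 named genes short of 2-fold, 13 changed sign on log2(TPM + 1), 4 on centred TPM and 1 with median-ratio size factors, with a change of at most 0.32 in size on log2 CPM. A fit by genotype tag was not run, since it leaves 1 KO library and no KO slope. The groups share no replicates to pair, but KO and WT pair by passage, and with passage as a block (1 residual degree of freedom) edgeR called 5 genes. The KO library of passage 2 is the shallowest of the 3, so genes near the filter rest on the fewest counts there.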

Other observations

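Single genes of other lists passed 2-fold in the KO cultures, against 2.77% of all genes that rose and 4.48% that fell. Of 19 heat shock genes (median 0.06) 2 rose, the near-identical pair Hspa1b (20.6, 47.6 and 59.0 CPM at passages 2, 3 and 4) and Hspa1a (7.94, 15.7 and 21.5 CPM), whose separate counts are uncertain. Hspe1, a mitochondrial chaperonin, had 115, 85.1 and 74.3 CPM (log2 -0.63). Of 36 positional Hox genes 2 rose, Hoxc8 (14.8, 20.9 and 33.4 CPM, log2 1.17) and Hoxc6 (19.6, 31.6 and 41.4 CPM, log2 1.08), 1 fell and 22 were above 0. Of 21 imprinted genes 3 fell. H19, a fetal RNA that shares its control region with Igf2, had 1615, 511 and 444 CPM (log2 -1.86), nearly all of it by passage 3, and Dlk1, a membrane protein of progenitors, had 19.2, 4.32 and 7.48 CPM (log2 -1.35).

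Of 39 axon guidance genes 1 rose and 3 fell (median 0.17), beside 2.77% of all genes that rose and 4.48% that fell. These counts are not far from those shares. Sema7a, a membrane-bound semaphorin, had 21.7, 13.2 and 3.54 CPM (log2 -2.60), whereas the secreted semaphorin gene Sema3c had 36.2, 36.8 and 94.9 CPM (log2 1.39). Both moved mainly after passage 3. Of 23 fibroblast identity and progenitor genes 4 rose and 6 fell. The surface antigen gene Ly6a had 66.5, 95.1 and 169 CPM (log2 1.34) and Prrx2, a mesenchymal factor, had 12.5, 17.9 and 31.5 CPM (log2 1.33). Nt5e, the ecto-enzyme CD73, had 14.8, 8.7 and 2.69 CPM (log2 -2.44). Among immediate early genes Egr2 had 19.1, 11.3 and 6.29 CPM (log2 -1.59) and Fos had 51.0, 20.5 and 25.4 CPM (log2 -1.0), and 0 of 25 rose. Ppbp, a platelet chemokine, had 1.98, 10.7 and 8.17 CPM (log2 2.01).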
